A study of Mus musculus with 34 samples.

Results

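The genes described here are 30 mouse genes of cholesterol and fatty acid synthesis, 19 in the sterol branch and 11 in the fatty acid branch. They were chosen by symbol: every entry of the gene table whose symbol field holds one of the 30 names as a whole word was taken, which gave 31 entries of 24103. The rule itself uses no measured value, but the members were chosen with earlier results of these data known. A filter on low values, at least 1 FPKM in at least 3 libraries, was passed by 18 sterol and 11 fatty acid genes, and by 14595 entries of the table in all. Hmgcs1, which makes the HMG-CoA that the pathway reduces to mevalonate, is the missing member. It is listed only as 2 entries on unplaced sequence of chromosome 13, at 0 in all 34 libraries, so no level or difference is given for it. The entry of Tm7sf2 also names Vps51 and that of Scd2 also names Mir5114, and Scd1 and Scd2 are close copies, so the values of these genes are uncertain to that degree. Nsdhl and Ebp lie on chromosome X.

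RNA was sequenced in 34 libraries of 9 groups. CBMS1, a female embryonic stem cell line of CBA/MsM background, was kept in 2i/LIF medium (ESC, day 0, n = 3 libraries), turned into epiblast-like cells over 2 days (EpiLC, day 2, n = 5) and then aggregated from 2000 cells per well into embryoid bodies (EB) in plain GK15 medium with no factor added (days 3, 4, 5 and 6, n = 3 each, and day 7, n = 5). Epiblast stem cells (EpiSC, n = 3) were female, of C57BL6 background, and grown in Activin/FGF medium on fibroblasts. Mouse embryonic fibroblasts (MEF, n = 6) came from C57BL6 embryos of day 12.5 and were grown in medium with 10% serum, as 2 cultures each sampled at passages 0, 1 and 2. No group carries a deletion or a transgene that the labels name, and each course library comes from the 1 line. Medium, serum and strain change together with the cell type, so that their parts in any difference between these groups cannot be told apart.

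Cholesterol is built from acetyl-CoA through HMG-CoA and mevalonate to farnesyl diphosphate, then through squalene and lanosterol. Fatty acids are built from the same acetyl-CoA by carboxylation to malonyl-CoA, condensation by fatty acid synthase, elongation and desaturation. Both branches are controlled by membrane-bound transcription factors, the SREBPs: SREBP2 (gene Srebf2) acts mainly on sterol genes and SREBP1 (Srebf1) mainly on fatty acid genes. When membranes hold enough sterol, Insig proteins keep the SREBPs in the endoplasmic reticulum. When sterol is short, they are cut free and enter the nucleus, where they bind with the factors NF-Y and Sp1. Serum brings cholesterol in lipoproteins, which cells can take up.

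The values are FPKM, fragments scaled to transcript length and library, so that levels can be set side by side between genes. Between 11303 and 12212 genes reached 1 FPKM in a library, and relative depth ran from 0.85 to 1.185 times that of a reference library. Libraries correlated with their own group at Pearson r 0.9693 to 0.9883 across genes. Replicate 3 of EB day 3 stood apart in its mean level, 41.1 FPKM over all entries, beside 20.2 to 30.5 in the other libraries. In 9 of the 25 course libraries the labelled cell type points to a stage that does not match the title, and the title was used. Libraries carry project numbers that fall into A (19 libraries, with all of day 0 and MEF) and B (15 libraries, with all of EpiSC). Summed markers followed the group names only in part. Naive pluripotency markers reached 1625 to 1826 FPKM at day 0 and 45.7 to 59.5 at day 2, with 185 to 255 at day 4 and 106 to 167 in EpiSC. In EpiSC 2 of the 8 naive markers had a mean of at least 1 FPKM, beside 8 at day 0 and 6 at day 4. Epiblast markers stood at 1866 to 2043 at day 2 and 714 to 1225 in EpiSC. They also stood at 1199 to 1322 at day 0 and were highest at day 3, at 2066 to 2881. Neural progenitor markers were at 221 to 304 at day 7 beside 25.7 to 40.8 at day 2. Neuron markers were at 240 to 379 at day 7 and at 188 to 228 at day 0. At day 7 all 8 neuron markers had a mean of at least 1 FPKM, and at day 0 only 2 did. Fibroblast markers reached 10215 to 14708 in MEF. Mesoderm markers stood at 426 to 674 FPKM at day 5 and 99.5 to 159 at day 7, and fibroblast markers at 341 to 556 in EpiSC, where fibroblast RNA was estimated at 3.345 to 5.173% of a library. In bulk RNA, fewer cells of a type and less RNA per cell cannot be told apart.

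The promoters of the genes show how often both branches hold the letters that the known cofactors bind. RefSeq promoters (build GRCm38.p6) matched 23 of the 30 genes, with 28 promoters in all, and the 250 bases before each start were searched on both strands for TCACNCCAC (a sterol response element), CACGTG (an E-box), CCAAT (bound by NF-Y) and GGGCGG (bound by Sp1). These are a different build from that of the expression table, mm9. The 6 windows shown belong to members whose level was lower at day 7 than at day 2, as given further on, and capitals mark matches of the NF-Y, Sp1 and E-box letters on either strand. They lie at Mvd chr8:122443423-122443672 (minus strand), Idi1 chr13:8885356-8885605 (plus strand), Lss chr10:76531355-76531604 (plus strand), Nsdhl chrX:72918271-72918520 (plus strand), Insig1 chr5:28071162-28071411 (plus strand) and Fasn chr11:120824548-120824797 (minus strand).
Mvd: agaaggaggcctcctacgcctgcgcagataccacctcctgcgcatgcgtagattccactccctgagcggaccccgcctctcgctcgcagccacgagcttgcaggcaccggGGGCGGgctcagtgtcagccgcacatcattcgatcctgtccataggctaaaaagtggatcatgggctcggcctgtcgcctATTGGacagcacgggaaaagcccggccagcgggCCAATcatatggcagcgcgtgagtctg
Idi1: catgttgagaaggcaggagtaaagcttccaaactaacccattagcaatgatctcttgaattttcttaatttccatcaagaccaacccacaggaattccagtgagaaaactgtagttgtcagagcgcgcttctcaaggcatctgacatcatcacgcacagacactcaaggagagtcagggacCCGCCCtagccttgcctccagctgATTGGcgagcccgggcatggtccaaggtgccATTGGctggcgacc
Lss: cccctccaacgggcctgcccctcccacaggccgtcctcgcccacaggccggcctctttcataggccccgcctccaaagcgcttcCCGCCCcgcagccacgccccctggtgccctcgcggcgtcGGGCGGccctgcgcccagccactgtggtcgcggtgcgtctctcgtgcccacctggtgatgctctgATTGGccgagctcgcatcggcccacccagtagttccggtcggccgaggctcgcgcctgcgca
Nsdhl: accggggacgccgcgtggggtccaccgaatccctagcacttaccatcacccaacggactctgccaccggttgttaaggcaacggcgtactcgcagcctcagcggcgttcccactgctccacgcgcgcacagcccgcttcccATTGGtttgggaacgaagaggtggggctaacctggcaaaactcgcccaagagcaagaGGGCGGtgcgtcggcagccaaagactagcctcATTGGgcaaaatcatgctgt
Insig1: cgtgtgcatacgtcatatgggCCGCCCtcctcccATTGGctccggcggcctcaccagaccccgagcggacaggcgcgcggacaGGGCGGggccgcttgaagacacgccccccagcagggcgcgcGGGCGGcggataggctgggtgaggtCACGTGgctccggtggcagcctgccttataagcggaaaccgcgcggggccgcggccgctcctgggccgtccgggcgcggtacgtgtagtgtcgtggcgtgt
Fasn: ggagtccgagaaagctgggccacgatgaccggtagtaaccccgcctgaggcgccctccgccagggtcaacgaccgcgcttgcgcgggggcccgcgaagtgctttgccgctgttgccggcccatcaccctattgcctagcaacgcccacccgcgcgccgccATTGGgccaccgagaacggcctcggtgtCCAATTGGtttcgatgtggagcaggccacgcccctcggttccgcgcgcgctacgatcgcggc

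CCAAT was present in at least 1 promoter of 14 of the 15 sterol genes with a window (93.3%) and of 3 of the 8 fatty acid genes (37.5%), beside 40.4% of the 11061 tested genes with a promoter and 37.5% of all 27025 genes in the table. At least 2 matches in 1 window were found in 8 of the 15 sterol genes (53.3%) and 14.7% of the tested genes. In the windows printed, Mvd, Idi1 and Nsdhl have 2 CCAAT matches each and Lss and Insig1 have 1. Fasn has 3, of which 2 overlap because the letters read the same motif on both strands. GGGCGG was present in 14 of 15 sterol genes (93.3%) and 4 of 8 fatty acid genes (50%), beside 63.6% of the tested genes. CACGTG was found for Hsd17b7, Insig1 and 1 promoter of Dhcr7, and in 9.82% of the tested genes. TCACNCCAC was found only for Hmgcs1 among the members, and in 1.26% of the tested genes. A match is a run of letters and not a binding site, and genes with several promoters had more chances of one.

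Groups were compared with limma on log2(FPKM + 1), with all 34 libraries in 1 fit and Benjamini-Hochberg adjustment over the 14595 entries. A log2 difference is the mean of the first group named less that of the second on this scale, which understates changes of low genes. A gene is said to have risen or fallen where its adjusted p was under 0.05, and it is called where the difference was also at least 1. Every p-value of a gene comes from limma. The labels tie libraries to cultures only in part, by the dates of the courses and the 2 fibroblast cultures. Titles of ESC and EpiSC libraries also give passages and dates, but do not state which libraries were separate cultures. All EpiSC titles name the same line, so these libraries are not replicates from independent lines. A p-value here therefore weighs a difference only against the scatter among libraries.

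Sterol genes were expressed in every group. As a set they were high in stem and epiblast-like cells, low in late embryoid bodies and EpiSC, and high again in fibroblasts. Single genes departed from this, such as Lss and Ebp at days 0 and 2 and Stard4 in EpiSC, as given further on. Of the 18 genes with values, 10 had their highest mean in MEF, 4 at day 2 and 4 at day 0, and the lowest mean was in EpiSC for 7 and at day 7 for 7. Within the course, 12 of 18 peaked at day 2 and 12 were lowest at day 7. Over days 0 to 7 the F test with a range of at least 1 called 13 of the 18, beside 54.6% of all genes tested, and 11 under quantile normalization, without Fdft1 and Sqle. Without replicate 3 of day 3 it did not call Dhcr7 or Hsd17b7.

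**Figure D1:**
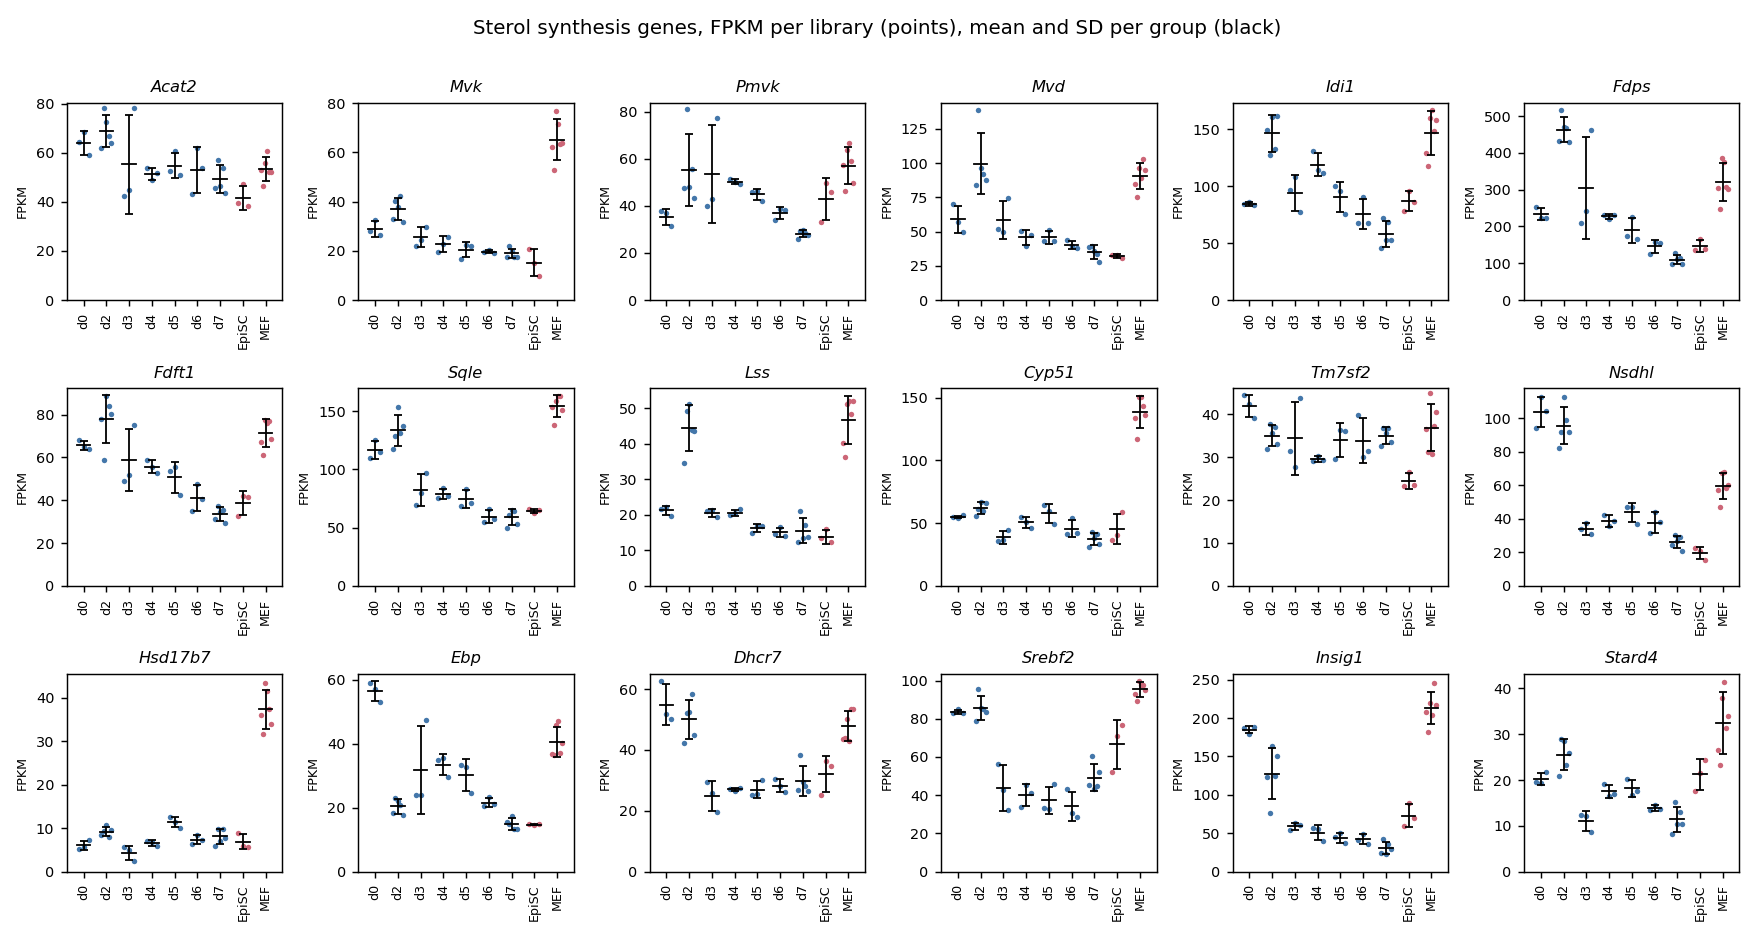
FPKM of the 18 sterol genes with values in each library (points, blue for the course and red for EpiSC and MEF), with the mean and SD of each group in black and days 0 to 7 written as d0 to d7. Fdps is highest at day 2, where its 5 libraries lie between 430.3 and 516 FPKM, while Hsd17b7 and Cyp51 are highest in MEF with no overlap with any other group.

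From ESC at day 0 to epiblast-like cells at day 2 4 mevalonate genes rose, Lss was called higher and the late enzyme Ebp was called lower. Of the 18 sterol genes, 1 was called higher and 1 lower, beside 7.69% and 9.09% of all genes tested. At any size 6 rose and 2 fell, beside 26.7% and 25.5%, so that the share that rose was near that of all genes, and 4 of the 6 that rose are mevalonate genes, Pmvk, Mvd, Idi1 and Fdps. The median log2 difference was 0.67 over the 6 mevalonate genes and 0.21 over all 18, beside 0.02 over all genes tested.

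Fdps, the synthase of farnesyl diphosphate, had the highest level of any sterol gene at day 2. Its FPKM were 253, 224 and 223 in the 3 libraries of day 0 and 432, 516, 469.6, 468 and 430.3 in the 5 of day 2. All day 2 libraries lay above all day 0 libraries (log2 difference 0.99, SE 0.17, adjusted p = 9.57e-06). Mvd, the decarboxylase that ends the mevalonate steps, read 69.8, 57.1 and 49.7 FPKM at day 0 and 83.9, 139, 96.3, 91.9 and 88.0 at day 2, and the groups did not overlap (log2 difference 0.74, SE 0.15, adjusted p = 7.88e-05). Idi1, which isomerises isopentenyl diphosphate, rose from 84.3 ± 1.39 FPKM (SD, n = 3) to 146 ± 15.8 FPKM (SD, n = 5) (log2 difference 0.78, SE 0.14, adjusted p = 2.59e-05).

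Lss, lanosterol synthase, read 21.8, 22.2 and 19.8 FPKM at day 0 and 34.7, 49.3, 51.4, 43.9 and 43.6 at day 2, so that every library of day 2 exceeded every library of day 0. It was the one sterol gene called higher (log2 difference 1.02, SE 0.14, adjusted p = 2.05e-07), and it fell under the minimum difference, at 0.97 to 0.98, when replicate 3 of day 0 or replicate 2 or 3 of day 2 was left out. Ebp, the sterol isomerase of a late step, moved the other way. Its FPKM were 59.1, 57 and 53.1 at day 0 and 18.3, 22.9, 21.9, 20.9 and 17.8 at day 2, with no overlap (log2 difference -1.43, SE 0.15, adjusted p = 1.65e-09). Ebp is X-linked, and the median log2 difference of the 552 X-linked genes tested was -0.23 in this comparison and -0.56 between days 7 and 0. The part of that shift in the value of Ebp was not tested. The other X-linked member, Nsdhl, read 104 ± 9.24 FPKM (SD, n = 3) at day 0 and 95.5 ± 11.2 FPKM (SD, n = 5) at day 2, and its log2 difference did not pass the test.

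In the first day of aggregation, from day 2 to day 3, most sterol genes fell. Of the 18, 4 were called lower and none higher, beside 0.959% lower and 0.911% higher of all genes tested, and at any size 14 fell and 1 rose, beside 10.7% and 11.4%. The median log2 difference was -0.70, beside 0.01 over all genes tested. Those called lower were Nsdhl, Stard4, Lss and Insig1.

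Nsdhl, a sterol dehydrogenase of the demethylation steps, showed the greatest fall of the step. Its FPKM were 82.5, 91.9, 113, 98.9 and 91.7 at day 2 and 33.6, 37.5 and 30.7 at day 3, with all day 3 libraries far below those of day 2 (log2 difference -1.46, SE 0.14, adjusted p = 7.19e-09). The median over X-linked genes in this step was -0.06. Lss returned to its day 0 level, with 21.0, 21.3 and 19.3 FPKM in the 3 libraries of day 3 (log2 difference -1.07, SE 0.14, adjusted p = 2.32e-06). Insig1, the sterol sensor's retention partner and itself a target of the SREBPs, read 123, 76.3, 164, 124 and 151 FPKM at day 2 and 54.3, 63.2 and 60.0 at day 3. The day 2 libraries of Insig1 were widely spread but all lay above those of day 3 (log2 difference -1.05, SE 0.19, adjusted p = 0.000194). Stard4, a carrier of sterol between membranes, fell from 25.5 ± 3.40 FPKM (SD, n = 5) to 11.1 ± 2.13 FPKM (SD, n = 3) (log2 difference -1.15, SE 0.16, adjusted p = 9.24e-06). Srebf2 itself fell from 85.7 ± 6.27 FPKM (SD, n = 5) to 43.7 ± 12.1 FPKM (SD, n = 3) (log2 difference -0.99, SE 0.15, adjusted p = 2.17e-05), just short of the minimum difference.

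The call of this step depends on which libraries are used. With project A alone 2 sterol genes were called lower, and with project B alone 7. Day 3 has 1 library in project A, which is assumed to vary like the other groups, and the genes that lost their call there kept their size (log2 difference -1.07 for Insig1, -1.05 for Lss and -1.01 for Stard4). Insig1 fell just under the minimum difference, at -0.95 to -0.99, without replicate 1 of day 3 or replicate 3 or 5 of day 2. Without replicate 1 of day 2 the count was 7. Replicate 3 of day 3 read 463 FPKM for Fdps, beside 209.9 and 241 in the other libraries of that day. For Ebp it read 47.5, beside 23.9 and 23.8. This library stood apart in further sterol genes, in both directions. Among others it was the highest for Acat2 (78.3, beside 42.5 and 44.9) and Pmvk (77.4, beside 39.9 and 42.9). It was the lowest for Srebf2 (32.2, beside 56.3 and 42.7) and Dhcr7 (19.5, beside 29.3 and 25.7). Without it 4 sterol genes were still called lower, Fdps (log2 difference -1.04) in place of Stard4 (-0.99). Ebp was the one gene that rose, and only with this library did its mean reach 31.8 ± 13.7 FPKM (SD, n = 3).

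From day 3 onward no single step of 1 day held a call among the sterol genes. None of the 18 was called between days 3 and 4, beside 0.911% higher and 1.38% lower of all genes tested. The same was true between days 4 and 5, beside 6.22% and 1.55%, where higher calls made up 80.1% of calls over all genes and 65.3% after quantile normalization. It was also true between days 5 and 6, beside 2.19% and 2.77%, and between days 6 and 7, beside 2.8% and 2%. At any size 2 rose and none fell from day 3 to 4, beside 5.34% and 6.93% of all genes. From day 4 to 5, 1 rose, beside 16.6%, and from day 5 to 6, 1 fell, beside 7.04%. From day 6 to 7, 1 rose and 3 fell, beside 15.6% and 11.1%. By unadjusted p under 0.05, 4, 3, 4 and 9 of the 18 passed in the same steps. Hsd17b7, a ketoreductase of the demethylation steps, was the member that moved in the 3 middle steps: its mean went from 4.30 ± 1.67 FPKM (SD, n = 3) at day 3 to 6.58 ± 0.629 at day 4, 11.3 ± 1.21 at day 5 and 7.32 ± 1.00 at day 6.

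Over the whole of aggregation the sterol genes were lower still. Between day 2 and day 7, an interval that includes the first day, 9 of the 18 sterol genes were called lower and none higher, beside 11% lower and 15.1% higher of all genes tested. At any size 16 fell and none rose, beside 33.9% and 36.7%. The median log2 difference was -1.02, beside 0.02 over all genes. The 9 are Fdps, Insig1, Nsdhl, Lss, Mvd, Idi1, Fdft1, Sqle and Stard4. Insig1 and Stard4 are control and transport genes, and the others are enzymes of the steps from Mvd to Nsdhl. The earlier enzymes Acat2, Mvk and Pmvk and the late enzymes Ebp and Dhcr7 were not called. The count was 9 in project A alone and 10 in project B alone, and it was 9 with each library left out in turn. Under quantile normalization it was 7, without Fdft1 (-0.95) and Sqle (-0.87).

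Fdps read 97.4, 128, 110.4, 113 and 98.2 FPKM in the 5 libraries of day 7, all far below those of day 2 (log2 difference -2.07, SE 0.14, adjusted p = 8.39e-14). Insig1 read 24.2, 41.8, 23.5, 36.2 and 29.7 FPKM at day 7, below all 5 libraries of day 2 (log2 difference -1.99, SE 0.16, adjusted p = 3.11e-12). Mvd read 38.9, 39.7, 35.7, 33.3 and 27.9 FPKM (log2 difference -1.47, SE 0.13, adjusted p = 1.03e-11). Idi1 went from 149.7, 127, 161, 132 and 161 FPKM at day 2 to 45.4, 72.2, 52.7, 68.2 and 52.5 at day 7 (log2 difference -1.33, SE 0.12, adjusted p = 4.92e-11). No day 7 library of Mvd or Idi1 reached the day 2 libraries of the same gene. Of the squalene enzymes, Fdft1, which joins 2 farnesyl units, fell from 78.0 ± 11.3 FPKM (SD, n = 5) to 33.6 ± 3.34 FPKM (SD, n = 5), and Sqle, the epoxidase that is a controlled step of the pathway, from 134 ± 13.2 FPKM (SD, n = 5) to 58.7 ± 6.87 FPKM (SD, n = 5) (log2 difference -1.18, SE 0.09, adjusted p = 5.73e-13). Tm7sf2, a sterol reductase, and Hsd17b7 were the members that did not pass, at 35.0 ± 1.93 FPKM (SD, n = 5) and 8.07 ± 1.69 FPKM (SD, n = 5) on day 7.

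Compared with the stem cells of day 0, 4 sterol genes were called lower at day 7 and none higher, beside 12.6% and 16.2% of all genes tested, and 15 fell at any size, beside 31.4%. Insig1 fell most, from 187, 179.8 and 188 FPKM at day 0 (log2 difference -2.57, SE 0.19, adjusted p = 2.19e-13). The others called were Nsdhl (log2 difference -1.95), Ebp (-1.86) and Fdps (-1.09), 2 of them X-linked. Fdps was not called under quantile normalization (-0.71). The day 7 libraries are the same as in the comparison with day 2. The median over the 18 was -0.75, beside 0.03 over all genes and -0.56 over X-linked genes.

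EpiSC, which like day 2 cells are a form of epiblast, had sterol gene levels closer to those of late embryoid bodies. Against day 2, 6 of 18 were called lower and none higher, beside 8.22% and 10.8% of all genes tested, and 16 fell at any size, beside 28.6%. The 6 were Nsdhl, Fdps, Lss, Mvd, Mvk and Sqle. Nsdhl read 22.6, 20.9 and 15.6 FPKM in the 3 EpiSC libraries (log2 difference -2.23, SE 0.14, adjusted p = 7.93e-15), and the X-linked median was -0.18. Mvk, mevalonate kinase, read 20.7, 15.2 and 9.81 FPKM in EpiSC and 33.0, 40.4, 37.7, 42.2 and 31.8 at day 2, with no overlap (log2 difference -1.28, SE 0.15, adjusted p = 2.81e-08). The count was 7 in project B alone and 7 after the estimated fibroblast share was taken off, and Sqle was not called under quantile normalization (-0.82) or without replicate 3 of day 2 (-0.98).

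Against day 7, 1 sterol gene was called higher in EpiSC and none lower, beside 7.3% and 9.59% of all genes tested. It was Insig1, with 59.4, 89.3 and 69.2 FPKM in EpiSC (log2 difference 1.21, SE 0.19, adjusted p = 2.42e-06). At any size 6 rose and 2 fell, beside 24.7% and 27%. The median was 0.12, beside -0.01 over all genes. All 3 control and transport genes were among those that rose, Srebf2 with a log2 difference of 0.42 and Stard4 with 0.85.

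Fibroblasts had the sterol genes high again. Against day 7, 13 of 18 were called higher and none lower, beside 18.3% and 16.1% of all genes tested, and at any size 16 rose and none fell, beside 35.9% and 40.7%. The median log2 difference was 1.37, beside -0.08 over all genes. With 1 mean per culture in place of 6 libraries 13 were called, and with each library left out 13 or 14. Under quantile normalization 11 were called, without Fdft1 (0.86) and Nsdhl (0.99).

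Insig1 led, with 182 (lowest), 212 (median) and 246 (highest) FPKM over the 6 MEF libraries (log2 difference 2.77, SE 0.15, adjusted p = 1.99e-16). Hsd17b7 stood apart in level, with 31.5 (lowest), 36.7 (median) and 43.4 (highest) FPKM in MEF and no library of another group above 12.5 (log2 difference 2.09, SE 0.14, adjusted p = 2.53e-14). Cyp51, the lanosterol demethylase, had 117 (lowest), 139 (median) and 151 (highest) FPKM in MEF beside 31.1, 42.8, 37.9, 41.1 and 33.5 at day 7 (log2 difference 1.87, SE 0.11, adjusted p = 2.49e-16). Mvk had 52.6 (lowest), 63.7 (median) and 76.8 (highest) FPKM (log2 difference 1.73, SE 0.13, adjusted p = 1.78e-13). Against EpiSC, 10 of 18 were called higher in MEF and none lower, beside 20.2% and 16%, and at any size all 18 rose, beside 37.2% that rose and 35.8% that fell over all genes. MEF and EpiSC share no project, so the project and the group cannot be told apart there. The summed fibroblast markers were 10215 to 14708 FPKM in MEF and 59.9 to 121 at day 7.

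The order of groups differed within the pathway. Fdps was higher at day 2 (463 ± 34.8 FPKM (SD, n = 5)) than in MEF (320.5 ± 51.7 FPKM (SD, n = 6)), with no overlap of libraries, while Cyp51 and Hsd17b7 at day 2 (61.7 ± 4.77 FPKM (SD, n = 5) and 9.18 ± 1.11 FPKM (SD, n = 5)) lay far below MEF (138 ± 12.8 and 37.3 ± 4.51). Acat2 and Nsdhl were also higher at day 2 than in MEF with no overlap, and Mvk, Ebp and Insig1 were lower with no overlap. Idi1, Lss, Fdft1, Sqle and Stard4 had overlapping libraries at day 2 and in MEF. Ebp and Dhcr7 had their highest means at day 0, with 56.4 ± 3.04 FPKM (SD, n = 3) and 54.9 ± 6.87 FPKM (SD, n = 3). So did Nsdhl and Tm7sf2, with means of 103.7 and 42.0 FPKM.

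Fatty acid genes fell into 2 orders within the course: Acly, Acss2, Scd1, Scd2, Fads1, Srebf1 and Lpin1 had their highest mean at day 0, and Acaca, Fasn, Elovl6 and Fads2 at day 2. Of the 11 genes, 5 had their highest mean in MEF, 3 at day 0 and 3 at day 2, and 5 were lowest in EpiSC, 3 at day 3 and 3 at day 6. The F test called 7 of 11, beside 54.6% of all genes.

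**Figure D2:**
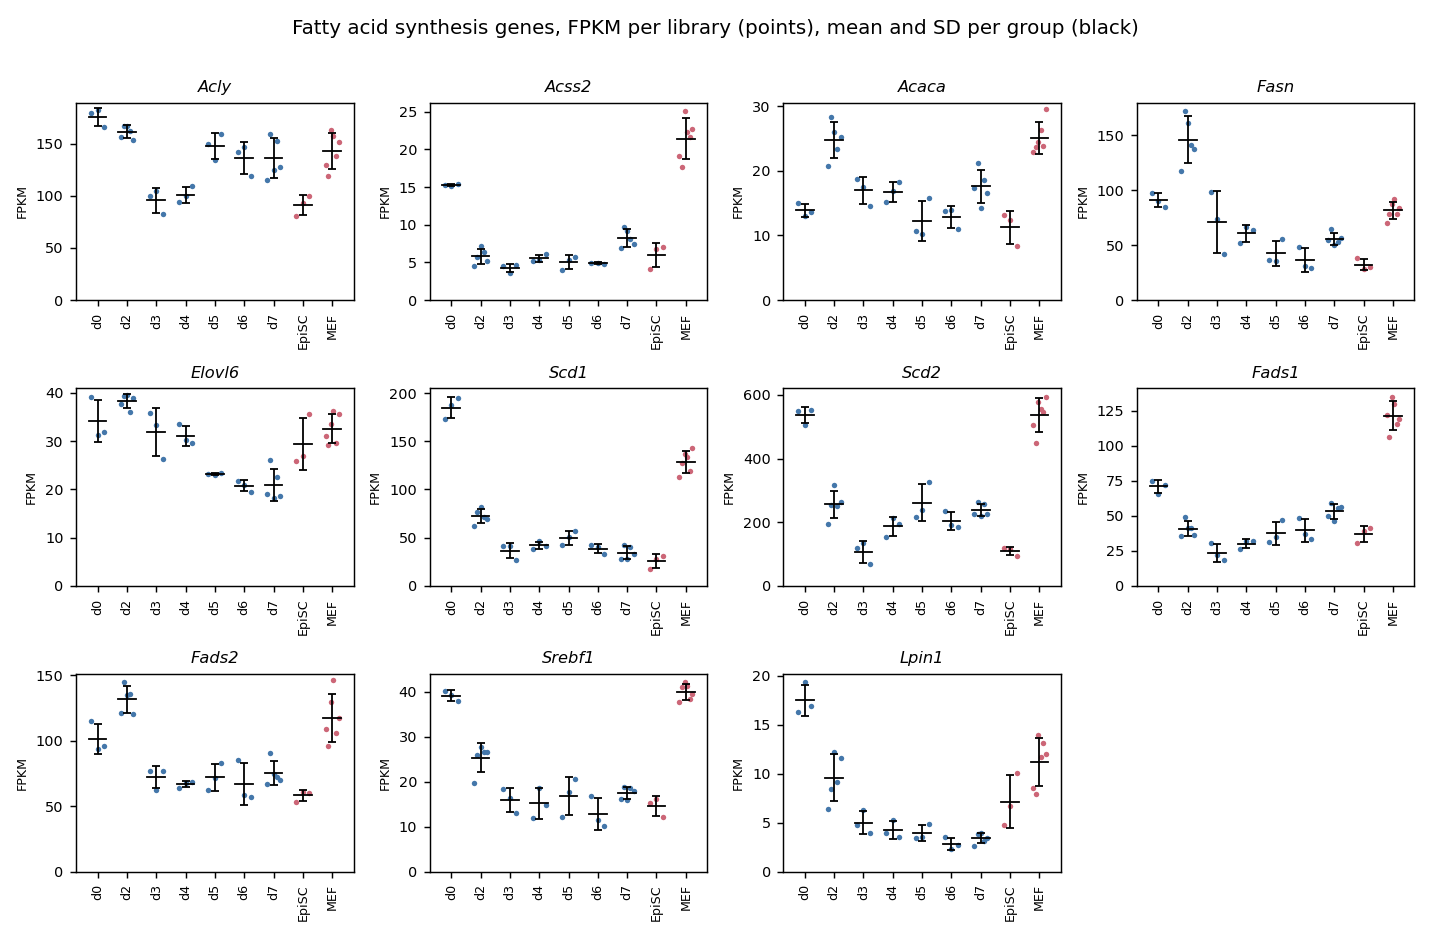
FPKM of the 11 fatty acid genes in each library (points, blue for the course and red for EpiSC and MEF), with the mean and SD of each group in black. Scd2 drops from 536 ± 25.4 at day 0 to 107 ± 34.5 at day 3 and stands at 238 ± 20.1 at day 7, while Fasn peaks at day 2.

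Between day 0 and day 2, 3 of 11 fatty acid genes were called lower and none higher, beside the 9.09% and 7.69% given above, and at any size 6 fell and 3 rose, beside 25.5% and 26.7%. Scd1, a stearoyl-CoA desaturase, read 173, 187 and 195 FPKM at day 0 and 62.4, 76.6, 81.8, 71.3 and 68.9 at day 2 (log2 difference -1.35, SE 0.16, adjusted p = 1.5e-08). Scd2, its neighbour on chromosome 19 and the most abundant member of either branch at day 0, read 549, 507 and 552 and 193, 253, 316, 252 and 263 (log2 difference -1.08, SE 0.17, adjusted p = 2.16e-06). Neither desaturase overlapped between the days. Acss2, which makes acetyl-CoA from acetate, read 15.2, 15.2 and 15.4 and 4.55, 5.68, 7.18, 6.39 and 5.23 (log2 difference -1.27, SE 0.14, adjusted p = 4.09e-09).

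The genes that rose in that interval were Acaca, Fasn and Fads2. Fasn, fatty acid synthase, read 97.2, 90.4 and 84.5 FPKM at day 0 and 117, 172, 161, 141 and 137 at day 2, with no overlap (log2 difference 0.67, SE 0.19, adjusted p = 0.00343). Acaca, the carboxylase that makes malonyl-CoA, read 15.0, 13.1 and 13.6 and 20.8, 28.3, 26.0, 23.4 and 25.3 (log2 difference 0.79, SE 0.14, adjusted p = 1.97e-05). Fads2, which desaturates polyunsaturated fatty acids, rose (log2 difference 0.38), while its neighbour Fads1 fell (-0.80). Srebf1 fell from 39.1 ± 1.18 FPKM (SD, n = 3) to 25.3 ± 3.24 FPKM (SD, n = 5) (log2 difference -0.62, SE 0.15, adjusted p = 0.000849), and Lpin1, a phosphatidate phosphatase, from 17.5 ± 1.60 FPKM (SD, n = 3) to 9.59 ± 2.39 FPKM (SD, n = 5) (log2 difference -0.83, SE 0.20, adjusted p = 0.0008). Without replicate 1 of day 2, Scd2 stood at -0.99 and the count of called genes was 2.

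From day 2 to day 3 all 11 fatty acid genes had lower means, and 9 fell at any size, beside 10.7% of all genes. Called lower were 2, Scd2 and Fasn, beside 0.959%. Scd2 read 120.2, 133 and 68.1 FPKM at day 3 (log2 difference -1.29, SE 0.17, adjusted p = 2.73e-06) and Fasn 98.2, 73.5 and 41.7 (log2 difference -1.10, SE 0.19, adjusted p = 0.000124). Replicate 3 of day 3 was the lowest in both. Without it neither was called, with log2 differences of -0.99 for Scd2 and -0.76 for Fasn. With project B alone 3 fatty acid genes were called. Project A has 1 library of day 3, and there the log2 difference of Fasn was smaller, at -0.59. The median over the 11 was -0.78, beside 0.01 over all genes.

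No fatty acid gene was called in the steps from day 3 to day 7, each of 1 day, where the shares of all genes were those given for the sterol branch. By unadjusted p under 0.05, 3, 5, 1 and 5 of the 11 passed in these 4 steps. At any size Scd2 rose from day 3 to 4 (log2 difference 0.84) and Acly from day 4 to 5 (0.54), where Acaca and Elovl6 fell. Between days 6 and 7, 5 rose and none fell, beside 15.6% and 11.1%: Acss2 (0.65), Acaca (0.42), Fasn (0.64), Fads1 (0.43) and Srebf1 (0.45).

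Over days 2 to 7, 3 of 11 were called lower, beside the 11% given above. At any size 8 fell and 2 rose, beside 33.9% and 36.7% of all genes. Fasn read 54.5, 64.7, 50.1, 53.2 and 56.5 FPKM at day 7 (log2 difference -1.36, SE 0.16, adjusted p = 1.06e-08). Lpin1 read 2.66, 3.88, 3.90, 3.13 and 3.46 FPKM at day 7 and 6.41, 8.46, 12.3, 9.17 and 11.6 at day 2 (log2 difference -1.24, SE 0.17, adjusted p = 2.02e-07). Scd1 read 27.4, 42.7, 27.8, 40.1 and 33.4 FPKM at day 7 (log2 difference -1.07, SE 0.14, adjusted p = 3.89e-08), and it was not called with project B alone (-0.92), under quantile normalization (-0.83) or without replicate 1 of day 7 (-0.997). The rises were Fads1 (0.39) and Acss2 (0.45). Scd2 ended near where it stood at day 2, at 238 ± 20.1 FPKM (SD, n = 5) beside 256 ± 43.6 FPKM (SD, n = 5), and did not pass. The median was -0.50, beside 0.02 over all genes.

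Against day 0, day 7 had 4 of 11 called lower, beside 12.6%, and 10 fell at any size, beside 31.4%. Scd1 led (log2 difference -2.42, SE 0.16, adjusted p = 1.48e-14), followed by Lpin1 (-2.08), Scd2 (-1.17) and Srebf1 (-1.12), and Scd2 was not called under quantile normalization (-0.67). Acaca was the one gene that rose (0.32). Acly, the citrate lyase that supplies acetyl-CoA in the cytosol, stood at 136 ± 19.1 FPKM (SD, n = 5) beside 176 ± 8.41 FPKM (SD, n = 3) (log2 difference -0.38), and this direction turned under quantile normalization, to 0.03.

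EpiSC had the lowest fatty acid gene levels of the series for 5 of 11 genes. Against day 2, 5 were called lower and none higher, beside 8.22% and 10.8%, and 8 fell at any size, beside 28.6%. Fasn read 38.3, 28.3 and 30.3 FPKM in EpiSC (log2 difference -2.14, SE 0.19, adjusted p = 4.27e-11), and Scd1 read 17.4, 27.4 and 31.2 (log2 difference -1.51, SE 0.16, adjusted p = 1.73e-09). Scd2 (-1.21), Fads2 (-1.16) and Acaca (-1.09) were the others. Under quantile normalization 3 were called, without Scd2 and Fads2, and without replicate 3 of EpiSC Acaca was not called (-0.90). Against day 7, Scd2 was the one gene called, lower in EpiSC (119.9, 114 and 94.4 FPKM, log2 difference -1.12, SE 0.17, adjusted p = 1.37e-06), beside 9.59%. At any size 8 fell and 2 rose, beside 27% and 24.7% of all genes. Lpin1 and Elovl6 were the 2 that rose. Quantile normalization, or leaving out replicate 1 of EpiSC, added Lpin1 to the calls.

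MEF had 6 of 11 called higher than day 7 and none lower, beside 18.3% and 16.1%, and 10 rose at any size, beside 35.9%. Scd1 had 112 (lowest), 130.3 (median) and 143 (highest) FPKM in MEF (log2 difference 1.90, SE 0.13, adjusted p = 3.11e-14). Scd2 had 449 (lowest), 551 (median) and 594 (highest) (log2 difference 1.17, SE 0.14, adjusted p = 5.73e-09), close to its level at day 0. Fads1 had 106 (lowest), 120.5 (median) and 135 (highest), above every library of every other group (log2 difference 1.17, SE 0.12, adjusted p = 2.9e-10). The others called were Acss2, Srebf1 and Lpin1. Under quantile normalization Scd2 (0.83) and Fads1 (0.88) were not called. Against EpiSC 7 were called higher, beside 20.2%. Elovl6, an elongase, did not pass there (32.5 ± 3.03 FPKM (SD, n = 6) beside 29.4 ± 5.36 FPKM (SD, n = 3)).

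**Figure D3:**
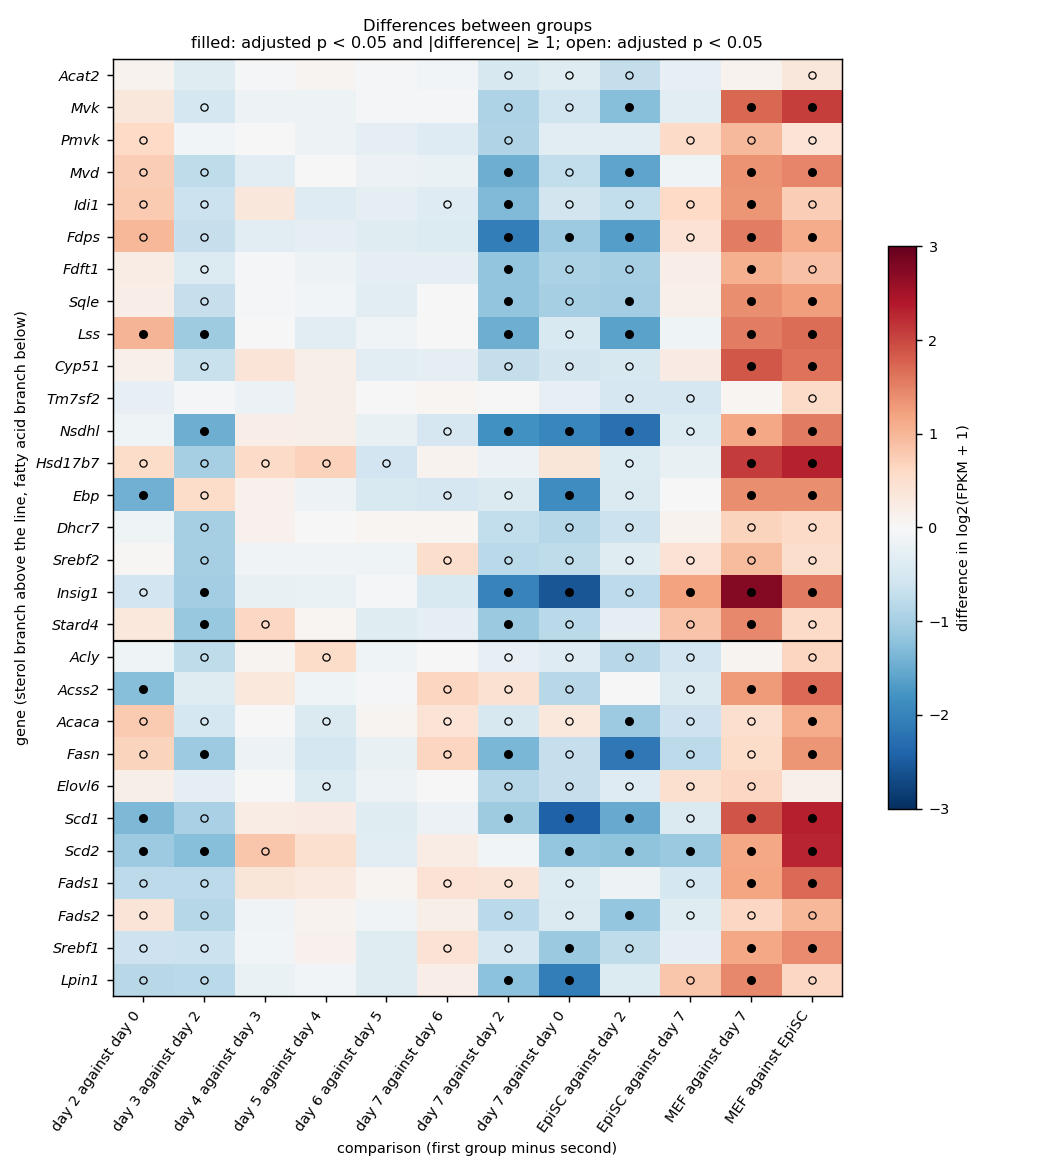
Differences of log2(FPKM + 1) for the 29 genes with values (rows, sterol branch above the line) in the 12 comparisons between groups (columns), in colour from -3 to 3, with filled circles for calls and open circles for an adjusted p under 0.05 alone. The columns of day 3 against day 2, day 7 against day 2 and EpiSC against day 2 are nearly all blue and the 2 columns of MEF nearly all red, while the steps between days 3 and 7 hold no filled circle.

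Within the fibroblasts, passage 2 was compared with passage 0 in a fit of the 6 MEF libraries with a term for the culture. No gene of either branch was called by limma, and none of the 14595 was (0% higher and 0% lower), while 1941 genes had an unadjusted p under 0.05, among them 7 of the 18 sterol and 3 of the 11 fatty acid genes. The directions were still one-sided. At passage 2, 17 of 18 sterol genes (94.4%) and 7 of 11 fatty acid genes (63.6%) were higher than at passage 0 in both cultures, and none of either branch was lower in both, beside 25.3% higher and 31.2% lower of all genes tested. At passage 1, 16 of 18 (88.9%) and 11 of 11 were higher in both cultures, beside 35.2% of all genes. The genes of a branch share their 2 cultures and the passage 0 libraries, so these counts are no test. Stard4 read 26.6, 37.9 and 31.3 FPKM at passages 0, 1 and 2 of culture 1, and 23.4, 41.5 and 33.9 in culture 2. Lpin1 read 8.49, 14.0 and 13.1 in culture 1, and 7.91, 11.7 and 12.0 in culture 2. Acat2, the acetoacetyl-CoA thiolase, was the sterol gene not higher in both, with 53.0 and 52.1 at passages 0 and 2 of culture 1.

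**Figure D4:**
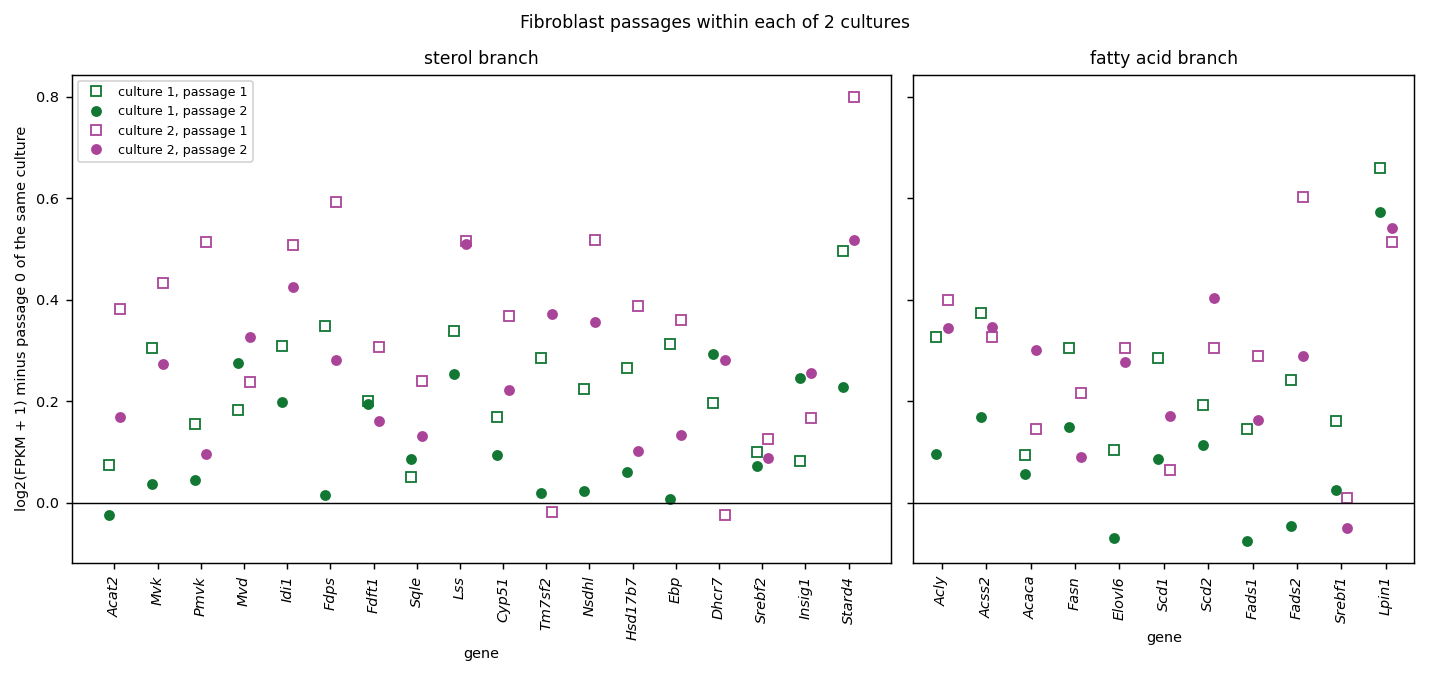
Difference of log2(FPKM + 1) from passage 0 of the same culture at passage 1 (open squares) and passage 2 (filled circles), for culture 1 (green) and culture 2 (purple), for 18 sterol genes on the left and 11 fatty acid genes on the right. Most points lie above 0, and Stard4 at passage 1 of culture 2 is the highest.

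Other enzymes of the sterol pathway were mostly lower after day 2. Of 5 described, all of them tested, 3 fell from day 2 to day 3 at any size, beside 10.7% of all genes. Of these, 1 was called lower, beside 0.959%. From day 2 to day 7, 4 fell at any size, beside 33.9% of all genes, and 2 of them were called lower, beside 11%. Msmo1, a sterol oxidase, went from 183 ± 38.3 FPKM (SD, n = 5) at day 2 to 78.7 ± 10.6 FPKM (SD, n = 3) at day 3 (log2 difference -1.19, SE 0.16, adjusted p = 6.06e-06). By day 7 Lbr, which carries a sterol reductase activity and a role in the nuclear envelope, was also called lower (43.8 ± 1.93 FPKM (SD, n = 5) beside 108 ± 7.34 FPKM (SD, n = 5)). In MEF against day 7, Sc5d (log2 difference 2.10, SE 0.12, adjusted p = 3.25e-16) and Msmo1 (1.63) were called higher, while Lbr fell (-0.84).

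Genes of SREBP control and sterol transport were mixed. Of 9 described, none was called from day 2 to day 3 by limma, while 5 had an unadjusted p under 0.05 and at any size 3 fell and 1 rose, beside 10.7% and 11.4% of all genes. Over days 2 to 7, 1 was called higher and none lower, beside 15.1% and 11% of all genes, with a median log2 difference of 0.12. It was Npc2, a carrier of sterol out of lysosomes (90.9 ± 5.98 FPKM (SD, n = 5) beside 38.6 ± 5.92 FPKM (SD, n = 5), log2 difference 1.23, SE 0.13, adjusted p = 9.57e-10). In MEF against day 7, 2 were called higher and none lower, beside 18.3% and 16.1%. They were Mylip, a ubiquitin ligase (27.3 ± 6.35 FPKM (SD, n = 6) beside 4.99 ± 0.795 FPKM (SD, n = 5), log2 difference 2.22, SE 0.15, adjusted p = 2.31e-14), and Npc2 (1.03), and 8 of the 9 rose at any size, beside 35.9% of all genes.

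Genes of sterol efflux and storage changed one by one. Of the 9 listed, 2 were called lower and 1 higher at day 2 against day 0, beside 9.09% and 7.69% of all genes. Abca1, an exporter of cholesterol that liver X receptors switch on, went from 14.4 ± 1.69 FPKM (SD, n = 3) to 0.0860 ± 0.0612 FPKM (SD, n = 5) (log2 difference -3.82, SE 0.19, adjusted p = 4.7e-17), and Apoe, an apolipoprotein, from 1288 ± 401 FPKM (SD, n = 3) to 131 ± 14.0 FPKM (SD, n = 5) (log2 difference -3.25, SE 0.32, adjusted p = 5.6e-10). Soat1, which makes cholesterol esters for storage, was the one called higher (1.22). In EpiSC it reached 157 ± 68.6 FPKM (SD, n = 3), and there the comparison was with day 2 (log2 difference 3.19, SE 0.17, adjusted p = 1.97e-16).

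Of 22 other fatty acid genes tested, 1 was called higher and 5 lower from day 2 to day 7, beside 15.1% and 11% of all genes, with a median of -0.10. Me1, malic enzyme and a source of NADPH, fell from 24.7 ± 2.39 FPKM (SD, n = 5) to 3.62 ± 0.500 FPKM (SD, n = 5) (log2 difference -2.48, SE 0.11, adjusted p = 1.94e-18), and Mid1ip1, an activator of the carboxylase, from 92.6 ± 7.89 FPKM (SD, n = 5) to 24.1 ± 3.69 FPKM (SD, n = 5) (log2 difference -1.91, SE 0.14, adjusted p = 6.02e-13). Elovl2, an elongase of long polyunsaturated fatty acids, was the one called higher (16.9 ± 2.59 FPKM (SD, n = 5) beside 2.22 ± 0.211 FPKM (SD, n = 5), log2 difference 2.46, SE 0.14, adjusted p = 1.01e-15). Of the 8 glycerolipid genes, 2 were called lower over the same days, beside the same 11%, Agpat2 (-1.27) and Lpin3 (-1.35).

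Fatty acid oxidation, the opposite process, had 4 of 13 tested genes called lower and none higher at day 2 against day 0, beside 9.09% and 7.69% of all genes. Cpt1a, the entry step of fatty acids into mitochondria, went from 31.9 ± 3.75 FPKM (SD, n = 3) to 3.74 ± 0.678 FPKM (SD, n = 5) (log2 difference -2.81, SE 0.12, adjusted p = 2.13e-18). Cpt1a was at 0.210 ± 0.157 FPKM (SD, n = 3) on day 6. Against day 2, EpiSC had 3 called higher and 1 lower, beside 10.8% and 8.22%, with Cpt1a at 27.0 ± 1.78 FPKM (SD, n = 3) (log2 difference 2.58, SE 0.12, adjusted p = 2.22e-17) and Cpt1b at 51.5 ± 10.6 FPKM (SD, n = 3) (log2 difference 1.92, SE 0.14, adjusted p = 3.03e-13). The entry of Cpt1b also names Chkb, so this value cannot be given to Cpt1b alone. MEF had 5 called higher than day 7 and none lower, beside 18.3% and 16.1%, Cpt1a again the first (4.00).

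Likeness of pattern was measured as Pearson's r over the 34 libraries between a gene and the mean z-score of a branch, where libraries of a group share their cell type and where MEF and late embryoid bodies set much of the range. Each value is a description. Among the sterol members, with the gene itself left out of the mean, Sqle was most like the rest (r = 0.975), then Lss (0.927) and Mvd (0.921), and Tm7sf2 the least (0.414), followed by Acat2 (0.551). Of the other sterol genes described that are no members, Msmo1 was the most like (0.920). Among fatty acid members Srebf1 came first (0.944), then Scd1 (0.910), and Elovl6 last (0.547). Outside all lists and at a mean of at least 5 FPKM, Aacs, an acetoacetyl-CoA synthetase, was the most like gene for both branches, at 0.944 for sterol and 0.920 for fatty acid genes. The next were Fbxo25 (0.911), Msn (0.897) and Agfg2 (0.891) for the sterol branch, and Fnbp1 (0.910), Clptm1 (0.910) and Abcb10 (0.899) for the fatty acid branch. Pura and Abcb10 were among the first 10 of both.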

How the data were processed

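Per the labels' protocols, a stranded mRNA kit was used on 500 ng of total RNA. The authors deposited 1 table of FPKM per gene, and the submitters' processing notes name mm9, HISAT2 2.0.4, cutadapt 1.4.1, Cufflinks 2.2.1 and Cuffdiff. Settings and the scaling between libraries are not given in the sources used here. Fragment totals and absolute depth are therefore unknown, and relative depth was estimated from the steps of values up to 0.15 FPKM, of which 28.3 to 46.1% were whole multiples of 1 step (tolerance 0.04 in log2), too few to recover reads. Median-ratio factors ran from 0.9973 to 1.0154.

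From these values, entries reaching 1 FPKM in 3 or more libraries entered the fit, 1 FPKM was added, log2 was taken, and limma 3.58.1 in R 4.3.3 was fitted to all 9 groups with a trend in the variance, after a check on simulated data. Groups followed titles and source names. Tables and figures used Python 3.11.15, pandas 2.3.3 and matplotlib 3.10.9. All members could be named in any comparison, of each other list up to 4 genes with the smallest adjusted p, and per branch the 10 most like genes. The members and lists were chosen with earlier results of these data known, and some genes of the pathway are not reported here. Alternatives were a pseudocount of 0.1, no filter or one at 5 FPKM, quantile normalization, median-ratio rescaling, only the groups compared, a project term, 1 project at a time, a replicate block, a culture course block, means per MEF culture, EpiSC less a fibroblast share, and each library left out. Replicate numbers match the dates of the courses on days 3 to 6, but libraries of a course did not deviate together (correlation -0.03 over course blocks), so no pairing was used.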

Additional observations from a re-analysis of the deposited data

Results flagged for a closer look

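In groups of 4 to 10 libraries (day 2, day 7 and MEF), 87 sets of values were examined for a library far from the rest, and 3 were found, where chance flags about 1 in 20 groups. Mvd read 138.7 FPKM in replicate 2 of day 2, beside 96.3 in the next library; this replicate also had the lowest Insig1 and Fdft1 of its group. Dhcr7 read 38.2 FPKM in replicate 2 of day 7, beside 29.5 in the next. Srebf1 read 19.58 FPKM in replicate 1 of day 2, the lowest, beside 26.0 in the next. The calls of Mvd, Dhcr7 and Srebf1 in the comparisons of these days were the same with and without the library named.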

How the results depend on the processing

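Of 544 recounts of called members (2 branches, 14 comparisons, all alternatives), 528 stayed within 1.5 times the reported count and 16 did not. The 528 include recounts of 0 where the reported count was also 0, as in the steps from day 3 to day 7 and the fibroblast passages. These say little about stability. The first day of aggregation was the least stable. Sterol calls between days 3 and 2 numbered 4, and 7 with a pseudocount of 0.1, 2 with project A only, 7 with project B only and 0 with the replicate block, and 3 to 7 with a library left out. Fatty acid calls there numbered 2, and 1 with project A only, 0 with the replicate block and 0 to 3 with a library left out. The replicate block pairs days 2 and 3 by number, and replicate 1 alone is of the same course on both days, so its 0 calls come from pairs that mostly share only a number (Nsdhl -1.46, adjusted p = 0.271). The culture course block, which follows the dates, gave 4 sterol and 2 fatty acid calls there. Project B only gave 1 fatty acid call between days 4 and 3, as 0 to 1 with a library left out. Sterol calls between days 2 and 0 ranged from 1 to 3 with a library left out. Quantile normalization gave 3 fatty acid calls for EpiSC against day 2 and 2 for EpiSC against day 7, where leaving a library out gave 1 to 2. Of 4013 recomputed log2 differences of single members, 2 turned: Acly under quantile normalization stood at 0.179 for day 7 against day 2 and 0.029 for day 7 against day 0. In the other comparisons the replicate block kept the counts within 1.5 times. For these changes the cause was not tested. Depth is unknown, so that low levels such as those of Hsd17b7 and Lpin1 carry a counting error that cannot be given, and 3 libraries per day limit what a step of 1 day can show.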
